A study of Homo sapiens with 6 samples.

Results

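The kinases of the RAF-MEK-ERK cascade were examined on 6 Affymetrix arrays (chip A of the HG-U133 set) of HL60 cells, an established human promyelocytic leukemia line. Cells were kept for 5 days with tretinoin, the retinoid all-trans retinoic acid, at 1 μmol/l or with vehicle alone. DMSO was present at 0.1% in either condition, and each condition has 3 arrays. Members were chosen by name as the probe sets annotated to exactly 1 gene among NRAS, ARAF, BRAF, MAP2K1, MAP2K2, MAPK3 and RPS6KA1. This gave 7 of the 22283 probe sets on the array, covering 5 of the 7 genes and of the 11963 genes that have a probe set of their own. NRAS and BRAF had no such probe set in the annotation used here and are not analysed here. By the study's description, labeled product was pooled per condition and hybridized in parallel, so every p-value below measures the spread between hybridizations and not between cultures.

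In this cascade an active RAS protein recruits RAF kinases such as ARAF to the membrane. RAF phosphorylates the MEK kinases (MAP2K1 and MAP2K2), MEK phosphorylates the ERK kinases such as MAPK3, and ERK phosphorylates transcription factors and further kinases such as RPS6KA1, a ribosomal S6 kinase also called RSK. HL60 cells are known to carry an activated NRAS gene, and signaling through ERK is known to take part in their differentiation under retinoic acid. The cascade is switched by phosphorylation, which the arrays do not measure. They report only transcript levels.

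On the signal scale used here, arrays were multiplied to equal mean signal and values below 20 were set to 20, the floor. Between 54.9% and 60.1% of probe sets exceeded 20 on each array. The 5 promyelocyte markers (MPO, ELANE, PRTN3, AZU1 and CTSG) summed to 3296 to 3815 in vehicle and 171 to 208 in tretinoin, and all 5 were lower. Of 7 neutrophil markers, 6 were higher, with sums of 615 to 673 and 3117 to 3614. All 4 tested monocyte and macrophage markers were higher, with sums over 5 probe sets of 139 to 171 and 1620 to 1765. Most of the promyelocyte sum in vehicle was MPO (2914 to 3367). Likewise, VSIG4 (1035 to 1170) made up most of the monocyte and macrophage sum in tretinoin. None of 2 lymphocyte, 1 erythroid and 2 epithelial or fibroblast markers tested was called by limma, with an unadjusted p above 0.05 for each, and their sums overlapped between the conditions. RNA and labeling quality was read from the control probe sets, where ACTB gave a 3' over 5' signal ratio of 1.38 to 1.42 in vehicle and 1.14 to 1.17 in tretinoin, and GAPDH 1.06 to 1.17 and 1.15 to 1.19. The part of these shifts in the changes below was not tested, and in bulk RNA fewer cells of a type and less RNA per cell cannot be told apart.

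Promoter windows are shown for reference for the 3 members whose scaled arrays did not overlap and whose gene has a single probe set. RPS6KA1 carries the call, and ARAF and MAP2K1 were not called, with fitted changes under the minimum for a call. Each window runs from 250 bases before to 50 after an annotated start (RefSeq, GRCh38.p14), 5' to 3' on the strand of the gene. Capitals mark CCAAT boxes (CCAAT) and GC boxes (GGGCGG), searched on both strands. The windows are chr1:26529511-26529810 (plus strand) for RPS6KA1, chrX:47560955-47561254 (plus strand) for ARAF and chr15:66386662-66386961 (plus strand) for MAP2K1, and the start used in HL60 cells was not measured.
RPS6KA1: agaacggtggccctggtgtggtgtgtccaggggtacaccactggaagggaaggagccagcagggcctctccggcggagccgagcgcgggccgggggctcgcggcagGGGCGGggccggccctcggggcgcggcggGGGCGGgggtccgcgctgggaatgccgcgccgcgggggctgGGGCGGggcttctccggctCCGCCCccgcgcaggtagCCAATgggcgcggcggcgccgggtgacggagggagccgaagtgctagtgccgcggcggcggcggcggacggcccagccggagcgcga
ARAF: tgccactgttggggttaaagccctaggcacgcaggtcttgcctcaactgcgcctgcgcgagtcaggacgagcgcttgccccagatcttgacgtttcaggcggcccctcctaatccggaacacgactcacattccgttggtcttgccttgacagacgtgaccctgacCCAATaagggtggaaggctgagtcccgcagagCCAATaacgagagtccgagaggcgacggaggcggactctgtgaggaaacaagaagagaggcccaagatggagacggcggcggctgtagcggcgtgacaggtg
MAP2K1: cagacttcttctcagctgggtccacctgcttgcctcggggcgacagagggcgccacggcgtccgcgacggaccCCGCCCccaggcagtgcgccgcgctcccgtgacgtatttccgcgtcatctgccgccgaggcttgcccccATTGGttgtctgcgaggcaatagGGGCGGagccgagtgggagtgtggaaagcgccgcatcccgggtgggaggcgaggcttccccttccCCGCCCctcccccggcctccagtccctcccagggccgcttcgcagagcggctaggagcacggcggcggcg

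The RPS6KA1 window held 4 GC boxes and 1 CCAAT box, that of MAP2K1 3 and 1, and that of ARAF 2 CCAAT boxes and no GC box. Across all 35116 windows, 45.0% held a GC box and 34.6% a CCAAT box. The letters of a nuclear receptor half-site (AGGTCA), present in 13.8% of windows, and of an ETS site (CCGGAAGT), present in 4.14%, were in none of these 3. All 5 genes matched the promoter table, with 8 windows in all. Of the other 5 windows, the one for MAPK3 held 1 half-site and 8 GC boxes and one of those for MAP2K2 held 2 GC boxes. A second window of MAP2K1, one of MAP2K2 and one of RPS6KA1 held none of the 4 motifs. These matches are descriptions of the letters and not of binding.

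RPS6KA1, the kinase at the lower end of the cascade, was the only member called higher in tretinoin, and none was called lower. All 6 probe sets that could be tested had a fitted change above 0, with fitted folds of 1.32 to 1.81. A probe set was tested where it exceeded 20 on at least 3 arrays, and called at an adjusted p under 0.05 (limma, Benjamini-Hochberg over 13374 probe sets) with a fitted change of at least 1.5-fold. Called higher were 1 of 6 member probe sets and 13.6% of all tested, and called lower 0 of 6 and 13.8%. By limma, 4 of the 6 had a change above 0 with an unadjusted p under 0.05, against 19.9% of all tested, and 2 with an adjusted p under 0.05, against 15.8%. A fitted change above 0 was found for 47.3% of all tested. In 4 of the 6, every tretinoin array lay above every vehicle array, as for 21.7% of all tested. The median log2 fold change was 0.44 over the 6 and -0.031 over all probe sets tested.

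**Figure D1:**
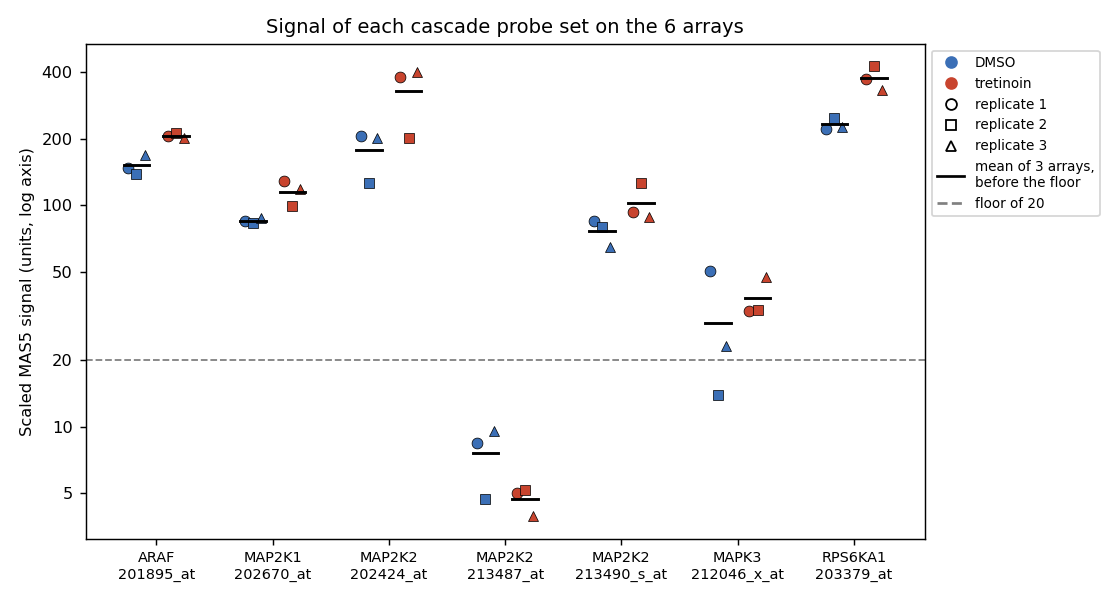
Scaled MAS5 signal (log axis) of the 7 cascade probe sets on each array, before the floor of 20 (dashed line). Vehicle is in blue and tretinoin in red, with a symbol per replicate and black bars for condition means. Gene and probe set identifier stand below the axis. RPS6KA1 separates most clearly, at 222 to 249 in vehicle and 334 to 424 in tretinoin, while the weakest MAP2K2 probe set stays below the floor on every array.

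ARAF, the RAF family member measured here, had scaled signals of 148, 138 and 169 on the vehicle arrays and 205, 211 and 201 on the tretinoin arrays, in the order of replicates 1 to 3, which holds for every gene below. After scaling, the tretinoin arrays were closely spaced and all lay above the vehicle arrays. The condition means were 152 ± 15.5 and 206 ± 5.14 (SD, n = 3 arrays each), a 1.36-fold difference. Its log2 fold change of 0.45 ± 0.13 (SE) had an adjusted p of 0.0358 by limma, but the fitted change of 1.36-fold was under the minimum of 1.5, so ARAF was not called. The 95% interval of the fold ran from 1.10 to 1.68. As deposited, the signals were 147.9, 134.9 and 205.5 in vehicle and 205, 155 and 214.3 in tretinoin, and overlapped. Without scaling the log2 fold change of ARAF was 0.24 (adjusted p = 0.543 by limma).

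MAP2K1, the gene of MEK1, had signals of 84.6, 83.4 and 87.4 in vehicle and 129, 99.7 and 118 in tretinoin. After scaling, the vehicle arrays lay within a narrow band and the tretinoin arrays all lay above it with a wider spread. Means were 85.1 ± 2.09 and 115 ± 14.6, a 1.36-fold difference. The log2 fold change of 0.43 ± 0.14 missed the threshold for the adjusted p by limma (adjusted p = 0.0525). The fitted change of 1.35-fold was also under the minimum, so MAP2K1 met neither criterion for a call. Its interval of 1.07-fold to 1.69-fold extends past the minimum, so a change of that size was neither called nor shown to be absent. As deposited, the signals were 84.6, 81.3 and 106.6 in vehicle and 128.3, 73.1 and 125.8 in tretinoin, and overlapped. Without scaling the log2 fold change of MAP2K1 was 0.23 (adjusted p = 0.591 by limma).

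MAP2K2, the gene of MEK2, has 3 probe sets, which did not give the same picture. The brightest had signals of 206, 126 and 201 in vehicle and 382, 202 and 401 in tretinoin. Replicate 2 was the lowest array of either condition, and tretinoin replicate 2 lay just under vehicle replicate 1, so the conditions overlapped. Means were 178 ± 45.2 and 328 ± 109.8. The log2 fold change of 0.85 ± 0.32 was the largest among the members, with the second largest error, and was not called by limma (adjusted p = 0.0844, fold interval 1.07 to 3.05). Without tretinoin replicate 2 it was called, with a log2 fold change of 1.17 (adjusted p = 0.0169 by limma), and over all alternatives its adjusted p ran from 0.0138 to 0.294.

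The second MAP2K2 probe set by brightness had signals of 85.1, 79.9 and 65.1 in vehicle and 93.0, 126 and 88.5 in tretinoin. Here tretinoin replicate 2 was the highest of all arrays after scaling, where the brightest probe set had it lowest of the tretinoin arrays. That rank came with the factor of 1.36 on this array, since the deposited tretinoin signals were 92.8, 92.1 and 94.3. Deposited vehicle signals were 85.1, 77.9 and 79.4, so every tretinoin array lay above every vehicle array with and without scaling. The log2 fold change was 0.41 ± 0.19 (limma, adjusted p = 0.144, fold interval 0.979 to 1.80). Per array, the log2 ratio of the brightest over the second was 1.28, 0.65 and 1.63 in vehicle and 2.04, 0.68 and 2.18 in tretinoin, so the ratio was lowest on replicate 2 of either condition. This comparison of probe sets was chosen after their values were seen. The third had signals of 3.94 to 9.60 and lay below 20 on every array, so it was not tested and is no measure of the gene.

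MAPK3, the gene of ERK1, was measured weakly by a single probe set. Signals were 50.6, 13.9 and 23.2 in vehicle and 33.3, 33.8 and 47.7 in tretinoin. The highest and the lowest of the 6 arrays were both vehicle arrays, and the conditions overlapped. With vehicle replicate 2 set to the floor, means were 31.3 ± 16.8 and 38.3 ± 8.16, and the log2 fold change of 0.40 ± 0.36 was not called by limma (adjusted p = 0.459, fold interval 0.733 to 2.37). Without DMSO replicate 1 it was 0.81 and called (adjusted p = 0.0376 by limma), and over all alternatives its adjusted p ran from that value to 1, so the direction of MAPK3 is not settled by these arrays. Its identifier carries the suffix by which the manufacturer marks probes that can match other transcripts.

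RPS6KA1 had signals of 222, 249 and 226 in vehicle and 371, 424 and 334 in tretinoin. Each tretinoin array exceeded each vehicle array by more than the whole spread of the vehicle arrays. Means rose 1.62-fold, from 232 ± 14.4 to 376 ± 45.6 (SD, n = 3 arrays each). The log2 fold change was 0.69 ± 0.14 (limma, adjusted p = 0.00895), higher than that of 87.0% of tested probe sets, and the interval of the fold ran from 1.28 to 2.03. The call was kept without each array in turn, and was lost without scaling between arrays, at a log2 fold change of 0.49 (adjusted p = 0.161 by limma). That setting moves the median of all probe sets by -0.18. Relative to the median of all probe sets, the change of RPS6KA1 was 0.70 without scaling and 0.72 with it. Scaling multiplies all probe sets of an array alike, so these values lie close by construction and are no test of the call. Over all alternatives its adjusted p ran from 0.000470 to 0.161.

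**Figure D2:**
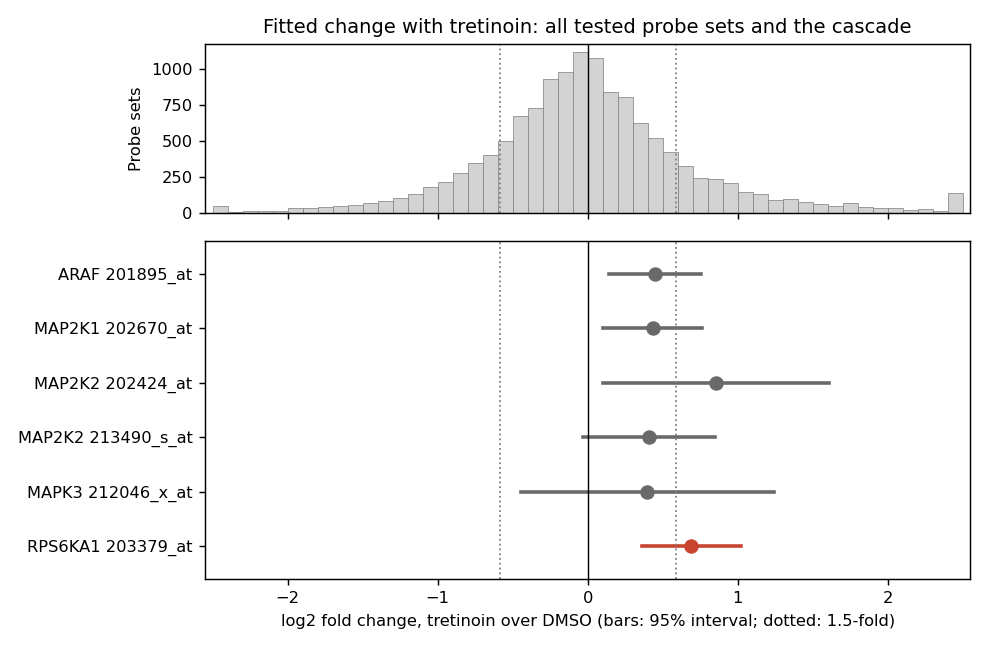
Upper panel, histogram of the log2 fold change (tretinoin over DMSO) of the 13374 tested probe sets, with values beyond 2.5 placed in the end bins. Lower panel, the 6 tested cascade probe sets with 95% intervals, RPS6KA1 in red as the called one. Every point lies to the right of 0, between 0.40 and 0.85, and the intervals of MAPK3 and of the second MAP2K2 probe set cross 0.

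The genes whose pattern over the 6 arrays was most like that of RPS6KA1, among 8214 probe sets with a single gene and above 20 on every array, were MVK, a kinase of isoprenoid synthesis (Pearson r = 0.999), and PI4KB, a lipid kinase of the Golgi (r = 0.997). MVK had means of 141 ± 9.69 and 212 ± 21.4 and a log2 fold change of 0.58, just under the minimum (limma, adjusted p = 0.0156). PI4KB had signals of 56.6, 63.0 and 59.6 in vehicle and 110, 137 and 95.6 in tretinoin. It was called higher, with a log2 fold change of 0.92 (limma, adjusted p = 0.00504). After scaling, as in RPS6KA1, replicate 2 was the highest array of either condition in both genes. Tretinoin replicate 2 was the dimmest array and took the largest factor, 1.36. DMSO replicate 3 was the brightest and took the smallest, 0.820. As deposited, RPS6KA1 was 222, 242.5 and 276 in vehicle and 370, 311 and 355 in tretinoin. For RPS6KA1, replicate 2 was thus the highest array of either condition only after scaling. These correlations rest on 6 arrays that share the 2 conditions and are a description only.

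Ratios between members within an array ask whether neighbouring steps changed unequally, since the scaling of an array cancels in them where no value is at the floor. In the 2 ratios with MAPK3 it does not cancel on vehicle replicate 2, where MAPK3 was set to the floor. The log2 ratio of MAP2K1 over the brightest MAP2K2 probe set was -1.29, -0.59 and -1.20 in vehicle and -1.57, -1.02 and -1.76 in tretinoin. The conditions overlapped, and the difference of -0.42 had p = 0.3 (exact permutation test over arrays, two-sided, adjusted p = 0.9 over 3 pairs), where 3 arrays against 3 cannot give less than 0.1. This difference holds for the brightest MAP2K2 probe set only. The second had a log2 fold change of 0.41, close to the 0.43 of MAP2K1. The ratio of MAPK3 over MAP2K1 differed by -0.035 (exact permutation p = 0.9) and that of RPS6KA1 over MAPK3 by 0.29 (exact permutation p = 0.6). Both turned sign when 1 array was left out, the first without DMSO replicate 1 (0.38) or tretinoin replicate 1 (0.14) and the second without DMSO replicate 1 (-0.15). The pair of BRAF and ARAF could not be formed. With a floor of 40 the 2 ratios with MAPK3 differed by -0.46 and 0.72. Since no pair could have reached 0.05, these ratios leave unequal change between steps unresolved.

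The other genes of the pathway were taken from 5 lists by role, and a further list held kinases of the parallel p38, JNK and ERK5 cascades. Each gene is shown by its brightest probe set annotated to it alone. Of 72 genes in the 5 lists, 61 had such a probe set and 49 could be tested, with 11 called higher, 6 called lower and 32 not called. That is 22.4% and 12.2%, against 13.5% and 14.3% of the 8161 genes tested on the array. Their median log2 fold change was 0.061, against -0.040 over all genes. Over all 6 lists, 13 of 61 tested genes were called higher and 7 lower. Without scaling between arrays, 6 of these 61 were called higher, since ELK1, GRB2, IQGAP1, LAMTOR2, MAP3K11, MKNK1 and SOS2 were no longer called, and 8 were called lower. A floor of 40 ended the calls of HRAS, MAPKAPK5 and SOS2, adding 16 to all signals with no floor those of ELK1, MAPKAPK5 and SOS2, and testing every probe set those of EGR1, IQGAP1, MAP3K11, SOS2 and SPRY1.

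**Figure D3:**
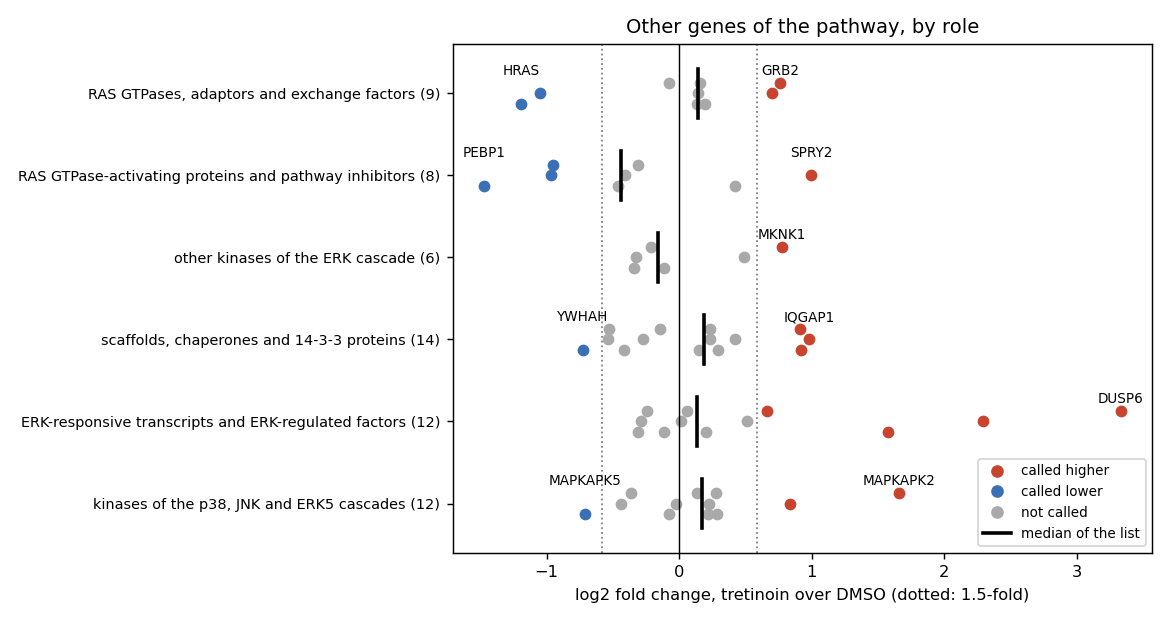
Each tested gene of the 6 lists by its log2 fold change between tretinoin and DMSO, with the number tested in brackets, red where called higher, blue where called lower and gray where not called. Black bars are list medians, and the called genes at either end are named. DUSP6 lies farthest to the right at 3.33 and PEBP1 farthest to the left at -1.47.

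Upstream of RAF, 2 of 9 tested RAS GTPases, adaptors and exchange factors were higher, 2 were lower and the other 5 were not called, with a median log2 fold change of 0.14. HRAS, a RAS GTPase, had signals of 62.9, 33.4 and 48.2 in vehicle and 20.4, 20.9 and 18.1 in tretinoin. It was at least 2.36-fold lower, since tretinoin replicate 3 was set to the floor (limma, adjusted p = 0.00723). With a floor of 40 the log2 fold change went from -1.19 to -0.31 and was not called. RASGRP2, an exchange factor that activates RAS-like GTPases, fell 2.08-fold from 77.2 ± 11.2 to 37.1 ± 1.58. GRB2, the adaptor that couples receptors to SOS proteins, rose 1.70-fold from 147 ± 4.59 to 250 ± 7.82. SOS2, an exchange factor for RAS, had means of 35.9 ± 5.57 and 58.0 ± 5.59 and rose 1.62-fold on the brightest of its probe sets, while another that could be tested lay near the floor with a log2 fold change of -0.012. The call of SOS2 was lost without DMSO replicate 2, at a log2 fold change of 0.57, under the minimum.

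The list of RAS GTPase-activating proteins and pathway inhibitors had the lowest median of the lists, -0.43. Of its 8 tested genes, 1 was higher, 3 were lower and 4 were not called. It leaves out DUSP6, a phosphatase of ERK that rose 9.89-fold. DUSP6 is listed with the ERK-responsive transcripts below, as are DUSP5 and DUSP7, which were not called. PEBP1, also known as RAF kinase inhibitor protein, fell 2.77-fold. Its signals were 505, 540 and 496 in vehicle and 183, 184 and 190 in tretinoin, far apart and tight in each condition, and its other 2 probe sets were also called lower, with log2 fold changes of -1.51 and -2.22. PEA15, a cytoplasmic anchor of ERK, had means of 106 ± 17.3 and 54.0 ± 7.20 and fell 1.96-fold on the brighter of its probe sets, and on the dimmer the log2 fold change of -0.84 did not pass (limma, adjusted p = 0.152). SPRY1 fell 1.89-fold and SPRY2, of the same Sprouty family of feedback inhibitors, rose 1.96-fold from 64.6 ± 15.9 to 127 ± 15.0. SPRY4 of that family had a log2 fold change of -0.41 and was not called, with overlapping arrays. SPRY1, SPRY4 and, below, LAMTOR2, EGR1, ELK1 and every gene named that was not called fall outside the naming rule and were picked once their values were known.

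Among 6 tested other kinases of the ERK cascade, only MKNK1, which phosphorylates the translation factor eIF4E downstream of ERK, was called. It rose 1.71-fold from 123 ± 5.75 to 210.5 ± 13.3 (limma, adjusted p = 0.00307). The 5 others, RPS6KA2, RPS6KA3, RPS6KA4, RPS6KA5 and MKNK2, had log2 fold changes of -0.34 to 0.49. The median of the 6 was -0.16, and 2 of them had a fitted change above 0. In MKNK2 (-0.32) and on the brightest probe set of RPS6KA5 (-0.34), every tretinoin array lay below every vehicle array. The other RPS6KA5 probe set overlapped, at 0.089. RPS6KA3, the family member RSK2, had signals of 82.0, 71.6 and 92.6 in vehicle and 113, 127 and 104 in tretinoin without overlap, at a fitted change of 1.40-fold that did not reach the minimum (limma, adjusted p = 0.0478). Those of RPS6KA2 overlapped (38.2, 53.7 and 50.9, then 46.2, 31.0 and 47.3). The difference between RPS6KA1 and its relatives was not tested.

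Of 14 tested scaffolds, chaperones and 14-3-3 proteins, 3 were higher, 1 was lower and 10 were not called, with a median of 0.19. IQGAP1, a scaffold that binds MEK and ERK, had a log2 fold change of 0.98, with means of 94.1 ± 9.69 and 190.1 ± 51.4. Its call was lost without DMSO replicate 1 or 2 or tretinoin replicate 1 or 3, at log2 fold changes of 0.93, 0.95, 0.88 and 0.83 with adjusted p of 0.0512, 0.0507, 0.0548 and 0.0521 by limma. Its other 2 probe sets were also called higher, at 0.86 and 0.67. ARRB1, beta-arrestin 1, rose 1.88-fold from 111 ± 9.23 to 208 ± 10.2, and its other 3 probe sets were also called higher. LAMTOR2, part of the late endosomal complex that anchors MEK, rose 1.89-fold. YWHAH, the eta isoform of the 14-3-3 proteins, which bind phosphorylated RAF, fell 1.65-fold from 160.1 ± 12.0 to 96.8 ± 3.43.

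The 2 largest rises of the pathway were among transcripts that respond to ERK or encode factors under its control, where 4 of 12 tested were higher, 0 were lower and 8 were not called, with a median of 0.13. DUSP6, the phosphatase that removes activating phosphates from ERK, had signals of 47.0, 77.2 and 58.1 in vehicle and 588, 548 and 667 in tretinoin. It rose 9.89-fold (log2 fold change 3.33 ± 0.20, limma, adjusted p = 6.78e-05), and its other 2 probe sets were also called higher. IER3, an immediate early gene, rose 4.86-fold from 53.8 ± 8.74 to 262 ± 14.8. EGR1, an immediate early transcription factor, was at least 2.83-fold higher, since 1 vehicle array was at the floor, and on its other probe set the log2 fold change was 0.51 and under the minimum. ELK1, a transcription factor phosphorylated by ERK, rose 1.58-fold on its brightest probe set, while another had a log2 fold change of 0.21 and was not called. The identifiers of both carry the same suffix as that of MAPK3, for probes that can match other transcripts. The call of ELK1 was lost without DMSO replicate 1, at a log2 fold change of 0.55, under the minimum. The rest of this list did not share these rises. Not called were ELK3, PHLDA1 and DUSP5, at log2 fold changes of 0.51, 0.20 and 0.061. DUSP7, ETV5 and SRF, at -0.11, -0.24 and -0.29, were not called either. CCND1 (0.013) and FOSL1 (-0.31) stayed close to the floor in both conditions, and FOS, ELK4, ETV4 and DUSP4 were too low to test.

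For comparison, the kinases of the parallel p38, JNK and ERK5 cascades had 2 of 12 tested genes higher, 1 lower and 9 not called, with a median of 0.18. MAPKAPK2, which p38 activates, rose 3.16-fold, with signals of 143, 142 and 144 in vehicle and 461, 440.4 and 454 in tretinoin, and its other 2 probe sets were called higher as well. MAP3K11, an upstream kinase of the JNK cascade, rose 1.76-fold from 105 ± 24.4 to 185 ± 20.6, a call lost without DMSO replicate 2 at a log2 fold change of 0.80 (adjusted p = 0.0517 by limma). MAPKAPK5 fell 1.64-fold from 42.2 ± 4.84 to 25.8 ± 3.52, and with a floor of 40, near its own level, the log2 fold change of -0.11 was not called. The difference between these lists and the members was not tested.

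**Figure D4:**
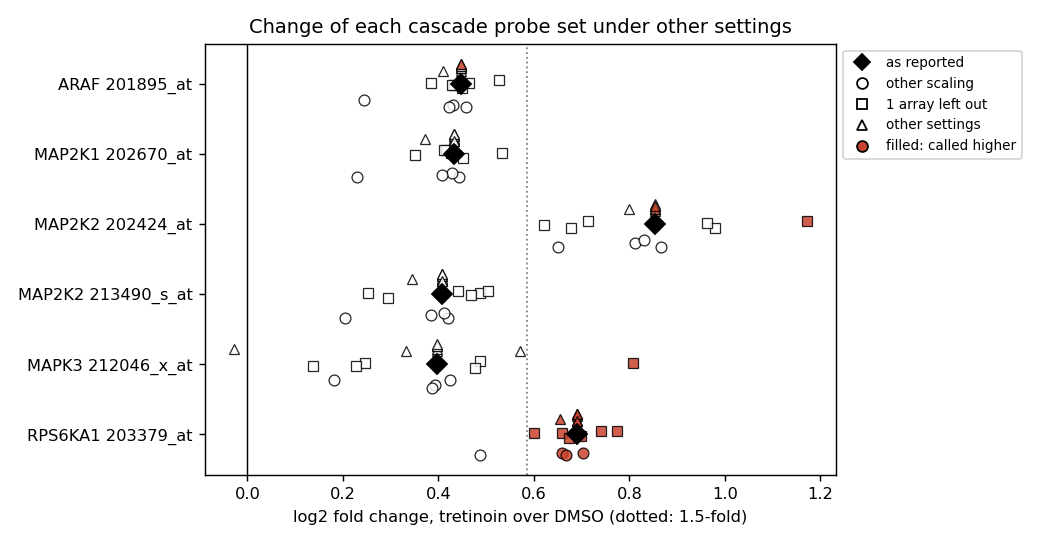
Log2 fold change of the 6 tested cascade probe sets as reported (black diamonds) and under the alternative settings, by kind of setting, filled red where called higher. Settings with equal values lie over each other. RPS6KA1 ranges from 0.49 to 0.77 and MAPK3 from -0.029 to 0.81.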

How the data were processed

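Total RNA of HL60 cells was amplified by a modified Eberwine method and hybridized to chip A of the HG-U133 set. The authors deposited signal intensities on a linear scale, made with MAS5 per the submitters' processing notes and not scaled between arrays (mean 91.3 to 152). The MAS5 version is not given in the sources used here. Here arrays were multiplied to the mean of DMSO replicate 1 (factors 0.820 to 1.36), 20 served as the floor, and limma 3.58.1 under R 4.3.3 fitted a mean per condition to log2 values (lmFit, then eBayes) over 13374 probe sets above 20 on at least 3 arrays. The script was tested on simulated data. Folds are ratios of condition means, fitted folds are from log2 values, and the number of arrays limits precision.

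Symbols come from the platform annotation, updated by Entrez identifier to RefSeq names. Of 22283 probe sets, 19071 have a single symbol, 1043 several and 2169 none. Some genes of the rule and lists are not reported here. Members and lists were chosen with earlier results of these data known. Named are all member probe sets, up to 2 genes called higher and 2 called lower per list, HRAS, and the 2 genes most like a called member. Exceptions are stated beside the values.

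Alternatives were other scalings, floors, filters, an offset of 16, a block, trend and robust variances, other fold minimums, averaged probe sets and each array left out. Figures used matplotlib 3.10.9 (Python 3.11.15).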

Additional observations from a re-analysis of the deposited data

How the results depend on the processing

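RPS6KA1 stayed above 0 under all 19 alternatives and called under 17. Without scaling between arrays its log2 fold change was 0.49, no member probe set was called (0), 1142 of all probe sets were higher and 2312 lower (1824 and 1850 with scaling) and 6 genes of the 6 lists were higher. With a minimum of 2-fold RPS6KA1 (0.69) and every other member were uncalled (0), all probe sets gave 1012 higher and 860 lower, and the 6 lists 4 higher and 3 lower. With no minimum change ARAF (0.45) joined RPS6KA1 as called (2 in all). With trend and robust variances the brightest MAP2K2 probe set (0.85) was the second called. The replicate block, which rests on a shared number only, gave 2 called member probe sets, the brightest MAP2K2 probe set (0.85, adjusted p = 0.0138 by limma) joining RPS6KA1, ended the call of SOS2 (adjusted p = 0.0504), and gave 1743 probe sets higher and 1758 lower. Deviations of same-numbered arrays correlated at -0.027, -0.014 and 0.066, and only the arrays numbered 3 correlated best with their own number. Leaving out 1 array at a time gave log2 fold changes of 0.60 to 0.77 for RPS6KA1, 0.62 to 1.17 for the brightest MAP2K2 probe set and 0.14 to 0.81 for MAPK3, with 1 to 2 member probe sets called. It gave changes of -0.28 to 0.38 for the ratio of MAPK3 over MAP2K1 and -0.15 to 0.60 for that of RPS6KA1 over MAPK3, which thus changed sign. MAPK3 reversed with a floor of 40 (-0.029), and its ratio over MAP2K1 with a floor of 10 (0.14). ARAF, MAP2K1 and the second MAP2K2 probe set stayed above 0 under all 19. The cause of the other changes was not tested, and signals near the floor limit MAPK3.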
